A study of Mus musculus with 2 samples.

Results

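The regions described here are the 878 Ronin ChIP-seq peaks on mouse chromosome 19, out of 37360 peaks in the deposited list. They were chosen by chromosome from the list, in build mm9, and ranked by row order, which is taken to follow the measured height of the peaks. Among peaks of equal height, row order is taken to follow chromosome and position, so their ranks do not order them by height. Ronin (Thap11) was immunoprecipitated with a custom-made antibody from retinae of wild-type CD1 mice at postnatal day 0, with more than 10 retinae pooled. The series holds 1 ChIP library of this kind and 1 control, none of them replicated, and the values come from the ChIP peak list. Peaks contained 268208 of the library's 3643141 tags, that is, mapped reads. The height of a peak is given as tags, recovered from the order of the rows, so tag counts at the top of the list are lower bounds. Peaks with 14 or more tags are called strong, a limit set by rank in the whole list.

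Ronin is a zinc finger protein of the THAP family that works with the co-regulator HCF-1 and is known from embryonic stem cells, where it occupies promoters of genes for transcription, translation and mitochondrial energy metabolism. In the retina it is known as a regulator of progenitor cell division and of mitochondrial genes. A DNA element that starts with ACTACA, shared with the factor ZNF143, is known at many of its targets. Chromosome 19 is the shortest mouse autosome and rich in genes. By protein-coding genes per Mb, counted in RefSeq assembly GRCm38 by chromosome alone, it took place 3 of 19 autosomes with 12.1, against a median of 7.82 on the others.

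The element is shown here as it stands in RefSeq promoters of the chromosome (assembly GRCm38.p6, 250 bases before to 50 after a gene's start). Those promoters are in another build than the peaks, so whether a Ronin peak lies at any of them was not analysed here. The letters ACTACA followed, after any 2 bases, by TCCC were searched on both strands and were in 22 of 1044 promoters of chromosome 19, or 2.11% (exact 95% interval 1.33% to 3.17%). Of all 32851 promoters, 1.81% held them, a value inside that interval. The 22 promoters belonged to 20 genes and held 22 separate sites. Among the genes were Ndufv1, a subunit of respiratory complex I, Sf3b2 and Prpf19, both of the splicing machinery, and Rpp30, a subunit of RNase P. Windows of 30 bases are printed for the genes with AT as the 2 free bases or with more than 1 site. This choice was made after the matches were seen. The capitals mark the motif, read in its own direction. Pprc1 encodes a coactivator of mitochondrial biogenesis, Trub1 an RNA pseudouridine synthase and Atl3 an atlastin GTPase that shapes the endoplasmic reticulum. Fen1, a flap endonuclease of DNA replication, and Tmem258, a subunit of the oligosaccharyltransferase complex, share both sites between their start sites. Mxi1 encodes a repressor of the MAX network.
Atl3, first site: taccgctgaACTACAACTCCCattaggcct
Atl3, second site: aaacgccgaACTACAATTCCCgatggaccc
Pprc1, first site: ccttcatagACTACAATTCCCagaaatcct
Pprc1, second site: gggaaaggaACTACATCTCCCgaaggacac
Trub1: agcctatggACTACAATTCCCagaaggcct
Fen1 and Tmem258, first site: ggggcatacACTACATTTCCCaggaggctg
Fen1 and Tmem258, second site: gaacatgggACTACAAGTCCCacaatgcca
Mxi1, first site: caaggaaagACTACATCTCCCggaggccat
Mxi1, second site: gggggcgggACTACATTTCCCagggggcag
The 2 free bases were TC at 6 of the 22 sites, TT at 6, AC at 4, AT at 3, and AA, AG and GC at 1 each. The motif was followed by ag at 13 of the 22 sites. A match is a description of the sequence, not a measured binding site.

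Chromosome 19 carried 10 strong peaks among its 878, or 1.14% (exact Clopper-Pearson 95% interval 0.547% to 2.08%). Over the whole list 1.06% of peaks were strong, and on the 18 other autosomes 1.07%. The share of strong peaks was therefore near the background. All intervals given cover counting error only, and row order and chromosome had been used to choose these peaks, so their values are given as a description, with no test.

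The highest peak of the chromosome lay at chr19:46130869-46131059, with at least 35 tags, and ranked 28 in the whole list. It was also far from other peaks, since the nearest one of any height, with 6 tags, was 117872 bp away. A second peak of the same neighbourhood, chr19:45437928-45438118 (rank 57), had at least 29 tags and lay 0.693 Mb before it. The other peak with at least 29 tags was chr19:10969484-10969674, at rank 56. It was preceded by chr19:10278512-10278702 (rank 91, at least 25 tags) at a distance of 0.691 Mb. The 4 highest peaks of the chromosome thus formed 2 pairs, 1 near 10.6 Mb and 1 near 46 Mb, and the members of each pair were far too distant to be parts of a single peak.

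Another 4 strong peaks lay between 3.58 and 6.53 Mb, near the start of the stretch with peaks. These were chr19:3576198-3576388 (rank 173, 20 tags), chr19:4012780-4012970 (rank 244, 17 tags), chr19:5024305-5024495 (rank 155, 21 tags) and chr19:6529689-6529879 (rank 330, 15 tags). The steps between them were 0.437, 1.01 and 1.51 Mb. The last of them had a close companion of 11 tags 4218 bp away, at chr19:6533907-6534097. The 2 remaining strong peaks were far from other strong peaks and were the lowest of the class, with 14 tags each. These were chr19:29992521-29992711 (rank 392) and chr19:52220871-52221061 (rank 393), and their nearest strong peaks were 15.4 and 6.09 Mb away. Both had weaker peaks nearby, 4 within 50 kb each, and the nearest, of 9 tags, lay 2450 and 22733 bp away. Between the strong peaks at 10.97 and 29.99 Mb lay the longest stretch without one, 19.02 Mb.

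The limit of the class fell between neighbouring tag counts. The 3 lowest strong peaks had 15, 14 and 14 tags, and the 3 peaks just below the limit had 13 each. Those were chr19:5366685-5366875 (rank 518), chr19:5771879-5772069 (rank 519) and chr19:15443857-15444047 (rank 520). A further peak of 13 tags, chr19:57527255-57527445, followed at rank 521. Peaks with the same tag count are taken to be listed by chromosome and position, so the order of these ranks follows position, not height.

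**Figure D1:**
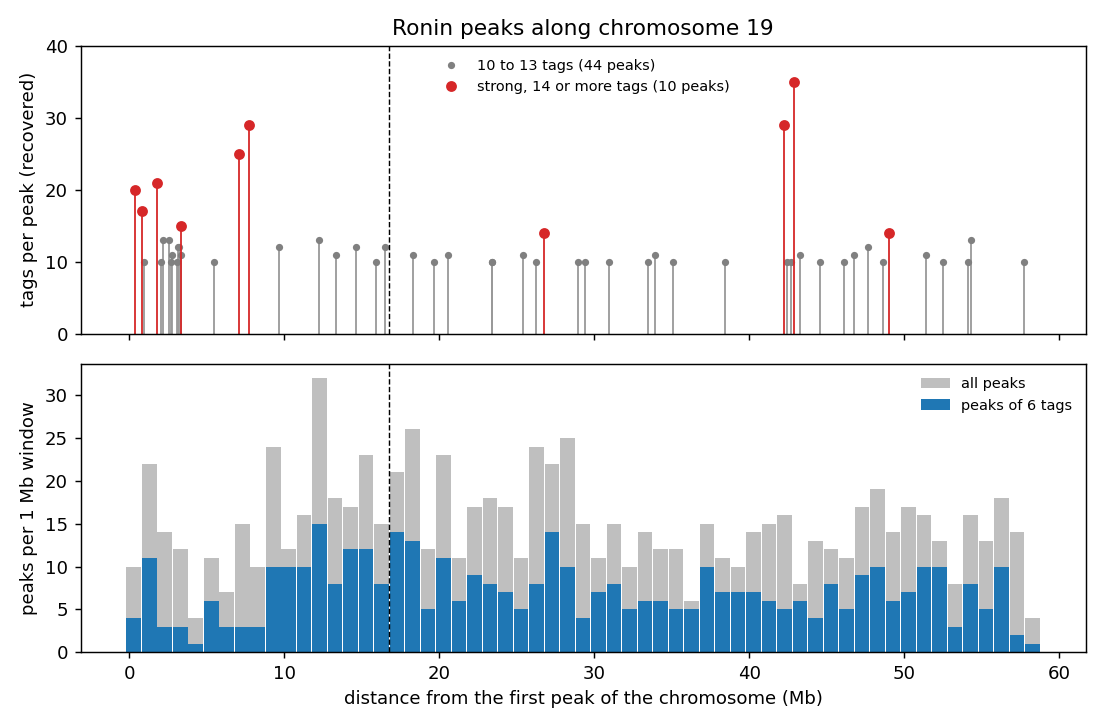
The upper panel plots recovered tags per peak (at the top, lower bounds) for the 10 strong peaks and the 44 peaks of 10 to 13 tags of chromosome 19, against the distance from the chromosome's first peak in Mb, and the lower panel the peaks per 1 Mb window, with those of 6 tags in blue. The dashed line is the 20 Mb boundary, with 6 strong peaks to its left and 4 to its right. Blue bars of 3 or 4 peaks stand under 5 of the 6 on the left, the bar of 4 being a partial window. Low blue bars also stand where there is no strong peak, with 1 peak at 7 to 8 Mb and 3 each at 9 to 10 and 11 to 12 Mb, while 8 to 9 Mb has 6.

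Peaks of any height were about as dense on chromosome 19 as on the other autosomes. There were 15.1 per Mb of span (first to last peak, 58.1 Mb), against 14.98 on the others, a ratio of 1.01 (exact 95% interval 0.943 to 1.08). In the order of the 19 autosomes this was place 12. The range over the others ran from 13.1 per Mb on chromosome 7 to 16.0 on chromosome 18. Strong peaks numbered 0.172 per Mb against 0.161, a ratio of 1.07 (0.509 to 1.99). This was place 7, with chromosome 7 highest at 0.349 per Mb and chromosome 14 lowest at 0.0602. With 10 peaks, a difference in the density of strong peaks was not detectable. Set against protein-coding genes in place of Mb, the ratio was 0.707 for all peaks (0.660 to 0.756) and 0.749 for strong peaks (0.356 to 1.39).

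The height classes took like shares on chromosome 19 and on the other autosomes. Peaks of 6 tags, the caller's threshold, made up 48.3% (44.9% to 51.7%) against 46.4%. Peaks of 7 tags made up 25.3% (22.4% to 28.3%) against 27.6%. The shares were 20.2% (17.6% to 23.0%) and 19.4% for 8 or 9 tags, and 5.01% (3.66% to 6.67%) and 5.37% for 10 to 13 tags. In each of these classes the share on the other autosomes was inside the interval for chromosome 19.

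More of the 10 strong peaks lay before 20 Mb than after it. Before 20 Mb lay 6 of the 10, or 60% (26.2% to 87.8%), in 28.9% of the span, and the boundary had been chosen with these positions known. That gave 0.358 strong peaks per Mb before 20 Mb (0.131 to 0.778) and 0.0969 after it (0.0264 to 0.248). The ratio was 3.69, and its exact 95% interval of 0.875 to 17.8 reaches below 1. Strong peaks were 2.29% of the 262 peaks before 20 Mb (0.845% to 4.92%) and 0.649% of the 616 peaks after it (0.177% to 1.65%), intervals that overlap.

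The lower classes were spread more evenly across the boundary. Peaks of 6 tags stood at 7.27 per Mb before it and 7.32 after it, a ratio of 0.994 (0.799 to 1.23). For 7 tags the ratio was 1.21 (0.898 to 1.61), and for 8 or 9 tags 0.789 (0.546 to 1.12). Peaks of 10 to 13 tags, of which 17 lay before and 27 after, had a ratio of 1.55 (0.792 to 2.95). When these were counted together with strong peaks, 23 peaks of 10 or more tags lay before 20 Mb and 31 after it. Their ratio of 1.83 had an interval of 1.02 to 3.23. Over all heights it was 1.05 (0.902 to 1.21). The median position was 10.6 Mb for strong peaks, 27.6 Mb for peaks of 10 to 13 tags, 31.7 Mb for 8 or 9 tags, 27.9 Mb for 7 tags and 30.5 Mb for 6 tags. The middle 50% of strong peaks spanned 5.40 to 41.6 Mb, and 2 of the 3 highest lay at 45.4 and 46.1 Mb, so early position did not follow height within the class.

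**Figure D2:**
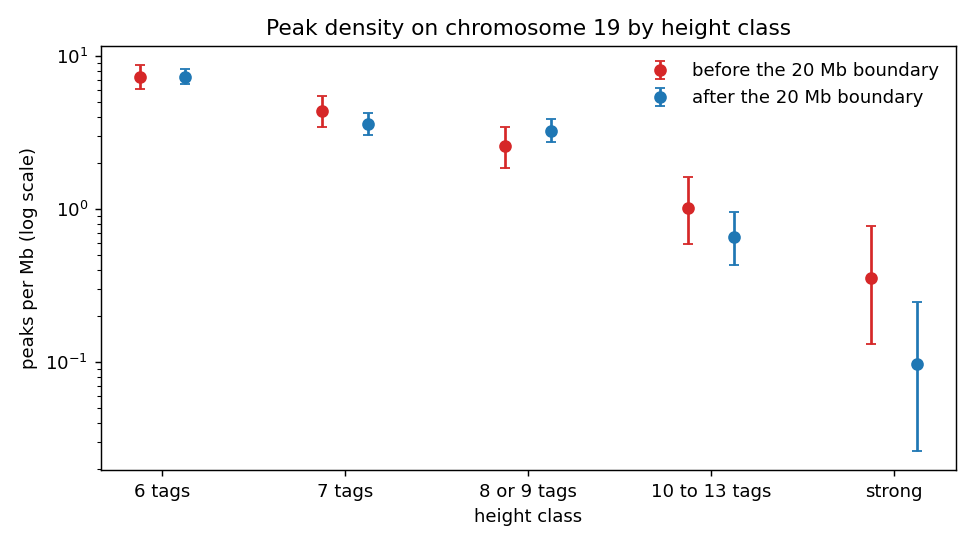
Peaks per Mb (log scale) on chromosome 19 before (red) and after (blue) the 20 Mb boundary, by height class, with exact Poisson 95% intervals as bars. The points nearly coincide at 6 tags, 7.27 and 7.32 per Mb, and stand farthest apart for strong peaks, 0.358 and 0.0969 per Mb.

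The part before 20 Mb was not uniform. A further division at 12 Mb was made after the 1 Mb windows had been seen, so it too is a description. All 6 early strong peaks lay before 12 Mb, among 105 peaks, or 5.71% (2.13% to 12.02%). From 12 to 20 Mb there were 157 peaks and 0 of them were strong. A count of 0 allows up to 3 strong peaks, or 1.91%, and the exact 95% interval reaches 2.32%. On the other autosomes 1.07% of peaks were strong, a share that this interval holds. That share is below the interval for the part before 12 Mb, which was chosen with its strong peaks known. Peaks of 6 tags showed the opposite arrangement, with 37 before 12 Mb and 85 from 12 to 20 Mb. That is 4.21 and 10.6 per Mb, a ratio of 0.397 (0.262 to 0.590), while the other autosomes held 6.95 per Mb. For 7 tags the ratio was 0.711 (0.433 to 1.16) and for 8 or 9 tags 0.721 (0.373 to 1.37). Peaks of 10 or more tags had a ratio of 2.58 (0.971 to 7.995). The near equality of 6-tag peaks across the 20 Mb boundary therefore joined a stretch that held few of them with a stretch that held many.

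**Figure D3:**
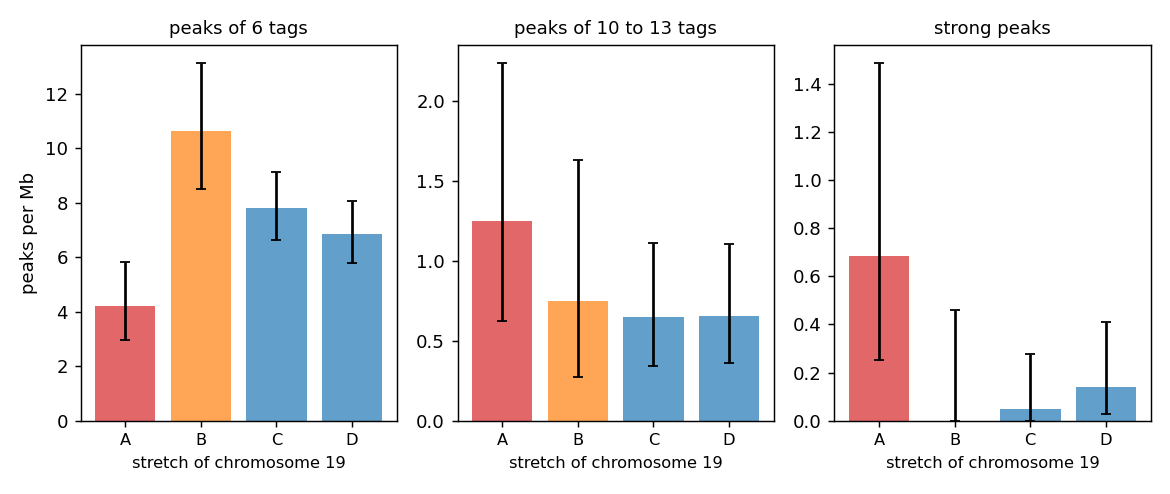
Peaks per Mb in 4 stretches of chromosome 19 (A, before 12 Mb; B, 12 to 20 Mb; C, 20 to 40 Mb; D, after 40 Mb), with exact Poisson 95% intervals, for peaks of 6 tags, peaks of 10 to 13 tags and strong peaks on separate linear axes. Stretch A is lowest for 6 tags at 4.21 per Mb and highest for strong peaks at 0.683 per Mb, and stretch B is highest for 6 tags at 10.6 per Mb with 0 strong peaks.

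In the remainder of the chromosome 6-tag peaks were of intermediate density. From 20 to 40 Mb there were 322 peaks, 16.1 per Mb (14.4 to 17.96), with 1 strong peak and 7.80 peaks of 6 tags per Mb. After 40 Mb there were 294 peaks, 13.8 per Mb (12.3 to 15.5), with 3 strong peaks and 6.86 peaks of 6 tags per Mb. Peaks of 10 to 13 tags were as dense in both, at 0.650 and 0.658 per Mb, against 1.25 before 12 Mb and 0.75 from 12 to 20 Mb, and the intervals of all 4 stretches overlap.

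High peaks were most crowded between 5 and 7 Mb. Of the 26 peaks there, 11 had 10 or more tags, or 42.3% (23.4% to 63.1%), against 6.15% over the chromosome and 6.44% on the other autosomes. Of the 11, 2 were strong, those at 5.02 and 6.53 Mb, and the other 9 had 10 to 13 tags. They included the pair of 13 tags at 5.37 and 5.77 Mb and a pair of 12 tags at chr19:6334892-6335082 and chr19:6452249-6452439. Among 1209 windows of 2 Mb on the autosomes, laid to begin at odd Mb after this stretch had been seen, 2 held more peaks of 10 or more tags. These were on chromosome 7 at 51 to 53 Mb, with 14, and on chromosome 3 at 87 to 89 Mb, with 13. Chromosome 7 at 133 to 135 Mb held as many, 11, of which 6 were strong. The next window on chromosome 19 held 5, and the median over the autosomes was 2. With windows that begin at even Mb the highest on chromosome 19 was 4 to 6 Mb with 8. Of 1213 such windows 4 held more, and 5, this one included, held 8. Of the 9 below the strong limit, 2 had 13 tags, 2 had 12 and 5 had 10 or 11.

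The most filled 1 Mb window was another one. From 15 to 16 Mb there were 32 peaks, 15 of them with 6 tags, and the highest had 13. The least filled full window was 7 to 8 Mb, with 4 peaks and none above 9 tags. Over the 57 full windows the mean was 15.2 ± 5.35 peaks (SD over windows). Windows with a strong peak held a median of 14.5 peaks (8 windows, 8 to 24) and those without one a median of 15 (49 windows, 4 to 32). The ranges of both kinds of window overlap almost throughout. The 3 longest distances between neighbouring peaks were all before 12 Mb. They measured 717 kb from 9168278 to 9885759, 616 kb from 6908213 to 7524030 and 530 kb from 8019408 to 8549558. All 3 lay between the strong peaks at 6.53 and 10.28 Mb, which were 3.75 Mb apart.

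With 10 strong peaks, their spacing could not be told apart from that on the other autosomes. Within 1 Mb of another strong peak lay 6 of the 10, or 60% (26.2% to 87.8%), against 47.9% (42.7% to 53.1%) on the other autosomes. Within 0.5 Mb the order was the other way, with 20% (2.52% to 55.6%) against 34.9% (30.1% to 39.96%). The distances inside these 3 pairs were 0.437, 0.691 and 0.693 Mb. Around each strong peak there were 0 to 4 other peaks within 50 kb (median 1.5) and 4 to 11 within 250 kb (median 7). For peaks of 6 tags these medians were 1 and 8. By these medians a strong peak on chromosome 19 had about as many neighbours as a peak at the threshold. The median distance to the nearest peak was 34909 bp for strong peaks and 21660 bp for peaks of 6 tags. Of the 10 strong peaks, 4 had 0 peaks within 50 kb, while 78.7% of all peaks of the chromosome had at least 1. With 10 peaks this is a description only.

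Peaks of any height were spaced about as on the other autosomes. On chromosome 19, 13.7% (11.5% to 16.1%) had another peak within 5 kb, against 13.9% (13.5% to 14.3%) on the other autosomes. The median distance to the nearest peak was 22.8 kb, against 22.0 kb. Before 20 Mb the share within 5 kb was 16.8% (12.5% to 21.9%) and after it 12.3% (9.85% to 15.2%), intervals that overlap. The closest pair began at 12085544 and 12085971, 427 bp apart, with 7 and 6 tags. The 5 closest pairs of the chromosome joined peaks of 6 to 8 tags, which are the counts of most of its peaks. Of its 878 peaks, 424 had 6 tags, 222 had 7 and 118 had 8.

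The share of strong peaks before 20 Mb was compared with the other autosomes at the same boundary. That boundary had been chosen with the positions on chromosome 19 known and was fitted to no other autosome. A first place for chromosome 19 was thus favoured by the choice and is a description only. The share was 60% (26.2% to 87.8%) on chromosome 19 and ran from 0% to 30.8% on the others, with chromosome 16 next. Most autosomes are far longer, so peaks of 6 tags serve as a measure of what lies before 20 Mb. They were uneven inside that part of chromosome 19, at 4.21 per Mb before 12 Mb and 10.6 from 12 to 20 Mb. On chromosome 19 the share of strong peaks exceeded that of 6-tag peaks by 31.2 percentage points, from 60% and 28.8%. The next was chromosome 7 at 15.1 points, and the median of the others was -5.56. When each autosome was divided at the same part of its span, 28.9%, the excess was 31.2 points on both chromosome 19 and chromosome 7. There chromosome 7 had 48.1% of its strong peaks, from 25 of 52, so its value rests on more peaks than the 6 of 10 on chromosome 19.

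**Figure D4:**
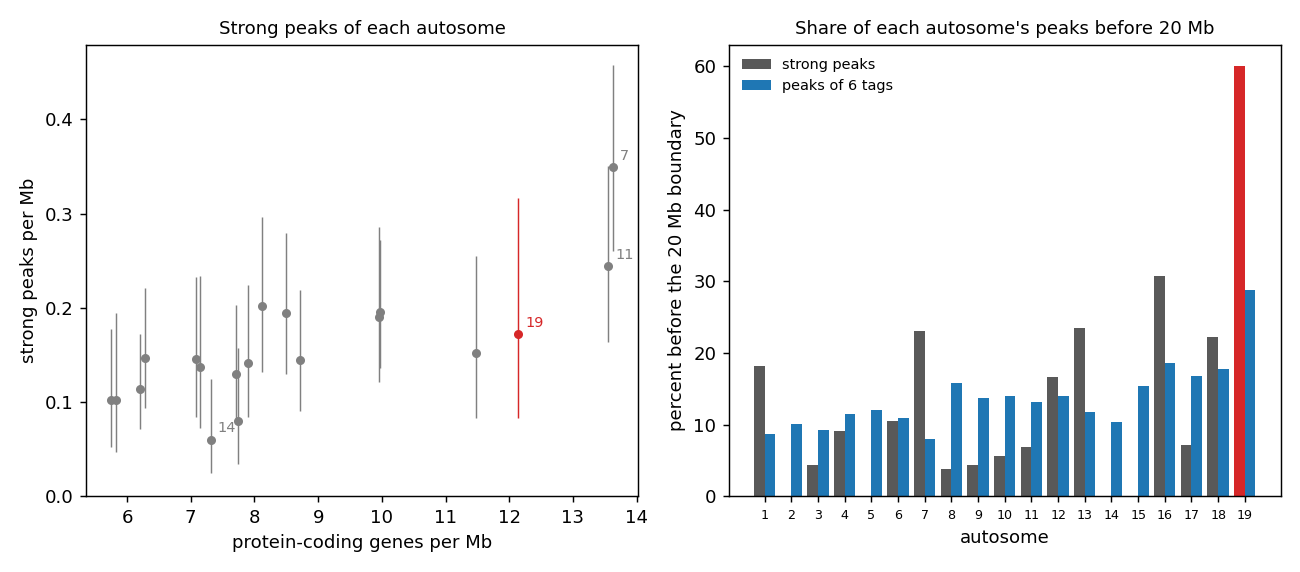
Left, strong peaks per Mb of each autosome with exact Poisson 95% intervals, against protein-coding genes per Mb; right, the percent of strong peaks and of 6-tag peaks that lie before 20 Mb on each autosome. Chromosome 19 (red) stands within the spread of the others on the left, at 0.172 per Mb, and above them on the right, at 60% of 10 strong peaks. The 20 Mb boundary had been chosen with the strong peaks of chromosome 19 known.

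The deposited list is what remained after the caller's filters, and its peak numbers have gaps. Read as removed candidates, the gaps came to 244 of 1122 numbers on chromosome 19, or 21.7% (19.4% to 24.3%), against 21.0% on the other autosomes. Among its first 17 numbers 5 were missing (2, 3, 7, 8 and 12), or 29.4%, against 31.4% of these numbers on the other autosomes. The highest peak had number 1 and the next had 4, 5 and 6. The removed candidates have no position in the list, so the part of the filters in the placement before and after 20 Mb was not tested. Genes at the peaks and the sequence under them were not analysed here.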

How the data were processed

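Only the peaks of the ChIP sample were used, and the control sample has no values of its own here. The submitters' processing notes name HOMER 4.7 and build mm9, and no aligner. Per the file headers, the caller sought peaks of 191 bp with a distance of 382 bp or more, and a false discovery rate of 0.001 gave a threshold of 6 tags. Of 47133 candidates, 9531 were removed against the control and 241 against the surrounding 10000 bp, per the file headers. That control is titled as input in the labels, but its antibody entry names normal rabbit IgG. The score deposited by the authors is 1 in every row and ranks nothing. Tags were therefore recovered from the row order, in which each step back in chromosome and position opens a lower count. The largest of 43 groups was set to 6 tags, which left 1 peak of chromosome 19 below it. Their sum is 266288, where the header gives 268208. The recovery was tested on simulated data sorted in the assumed order, which does not test whether the deposited list has that order.

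Densities are per Mb of span from first to last peak. Intervals are exact at 95%, binomial for shares, Poisson for densities and conditional binomial for ratios. With 1 library there was no test between samples, and no p-value is given. The members, the boundary and the height limit were chosen with earlier results of these data known. The rule for named regions took every strong peak, the 3 peaks on each side of the limit and the most and least filled windows. Its gene names and peak sequences needed positions of mm9 and were not used here, and the promoter motif search was added afterwards. Other boundaries, height limits, merging and denominators were tried as alternatives. Scripts ran in Python 3.11.15 with scipy 1.17.1, pandas 2.3.3 and numpy 2.4.6, and figures were drawn with matplotlib 3.10.9.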

Additional observations from a re-analysis of the deposited data

How the results depend on the processing

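Of 32 alternatives to 8 results, 25 stayed inside the 95% interval of the reported value and 7 moved out of it. For results on the 10 strong peaks these intervals are wide, such as 0.875 to 17.8 for the ratio across 20 Mb. Staying inside such an interval says little. Moving the boundary from 20 Mb to 15 Mb, to the middle of the span or to 12 Mb (the last chosen after seeing the data) took the ratio of all peaks before and after it from 1.05 to 0.855, 1.28 and 0.762. The cause was not tested. For strong peaks the same ratio of 3.69 ran from 2.33 at the middle of the span to 8.42 at 12 Mb, with 5.89 at 15 Mb. No strong peak lies between 10.97 and 29.99 Mb, so at 12 and 15 Mb the counts stay at 6 and 4. The ratio rises there only because the early span shrinks and the later span grows. For rows 1 to 800 it was 5.74, from 20 peaks, 14 of them before 20 Mb. Per protein-coding gene the ratio of all peaks to the other autosomes was 0.707, since the chromosome is rich in genes. With rows 1 to 800 the share of strong peaks became 2.28% by construction, since the limit takes 800 of all 37360 peaks. At that limit the ratio of their density to that on the other autosomes was 1.06 (0.644 to 1.65). At 0.5 Mb the share of strong peaks with a strong neighbour was 20% (2.52% to 55.6%), an interval that holds the 34.9% of the other autosomes. Of the first 100 candidate numbers 12% were missing, against 19.1% on the other autosomes. At this depth every value for strong peaks rests on 10 peaks of 1 library. Alternatives on sequences and nearest genes were not run.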
